A study of Mus musculus with 8 samples.

Results

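The genes described here are the 7 that encode the subunits of the NMDA-type glutamate receptor in the mouse, Grin1, Grin2a, Grin2b, Grin2c, Grin2d, Grin3a and Grin3b. They were taken by name from 21627 protein-coding genes on chromosomes 1 to 19 and X. All 7 were found, and 368 of the 648917 peaks in the 8 libraries had their summit inside one of them or within 5 kb of it. The family was singled out because Grin2b had been noted for fewer peaks in one group of libraries. Differences between the groups at these genes are therefore given as values, with no test.

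The peaks are ATAC-seq peaks, stretches of DNA that were open enough for the Tn5 transposase to insert into them above the local background. They come from amygdala neurons of male C57BL/6J mice that had received an adeno-associated virus carrying a neuron-targeting guide RNA. The guide was directed at the Rosa26 locus in the control group (sgRosa, 4 libraries) or at Nr2f2, for a knockdown, in the other (sgNr2f2, 4 libraries). Nr2f2 encodes COUP-TFII, a nuclear receptor that acts as a transcription factor. After more than 2 weeks of expression, mice of both groups were held in restraint tubes for 7 days, then had fear conditioning for 1 day and extinction for 3 days. All libraries are thus from stressed and trained mice, with no unstressed mice among them. The sources used here do not give the source of Cas9, the animals' ages or the share of neurons that took up the virus. Neurons were enriched with a magnetic kit rather than sorted for the virus, so untransduced neurons can be present in each library. A shift in the mix of neurons and a change of accessibility within each neuron cannot be told apart in such bulk libraries.

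NMDA receptors are ion channels made of 4 subunits that open when glutamate and a co-agonist, glycine or D-serine, are bound while the membrane is depolarised. GluN1, from Grin1, is present in every NMDA receptor and binds the co-agonist. The GluN2 subunits, from Grin2a to Grin2d, bind glutamate and set channel kinetics, and the GluN3 subunits, from Grin3a and Grin3b, bind glycine and lower calcium permeability. Calcium entry through these receptors is known to be needed for fear learning and extinction in the amygdala.

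An active gene usually has open chromatin at its start. The set of RefSeq promoters used here (GRCm38.p6, the assembly of mm10) had no entry for Grin2a, Grin2b and Grin3a. It gave an annotated start for 4 of the 7 genes, Grin1, Grin2c, Grin2d and Grin3b. No summit lay within 1 kb of any of these 4 starts in any of the 8 full lists. Of all 32580 starts in that set, 5.801 to 11.9% had such a summit in a library. In none of the 8 libraries was there one at 54.9%, so a start without one was the common case. The nearest summit was 1.23 kb from the start of Grin1, 2.07 kb from that of Grin2c, 1.03 kb from that of Grin2d and 1.68 kb from that of Grin3b. The DNA just before 2 of these starts is shown as the sequence in which no peak was found. Grin1 was taken as the obligatory subunit and Grin2c as the only one of the 4 with a motif match, and both were chosen after the values were seen. Both are on the minus strand and are written 5′ to 3′, with motif matches in capitals.
Grin1, chr2:25319188-25319437: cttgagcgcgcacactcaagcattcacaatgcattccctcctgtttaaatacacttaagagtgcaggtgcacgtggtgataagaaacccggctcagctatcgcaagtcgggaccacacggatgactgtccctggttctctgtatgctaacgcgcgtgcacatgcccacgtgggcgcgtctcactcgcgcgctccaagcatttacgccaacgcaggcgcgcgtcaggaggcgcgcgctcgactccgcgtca
Grin2c, chr11:115267244-115267493: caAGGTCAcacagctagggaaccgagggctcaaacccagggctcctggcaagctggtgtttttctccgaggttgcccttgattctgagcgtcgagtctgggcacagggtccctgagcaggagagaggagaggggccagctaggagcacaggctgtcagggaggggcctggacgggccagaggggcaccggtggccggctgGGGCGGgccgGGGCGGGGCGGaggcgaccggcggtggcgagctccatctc
The Grin1 stretch was 58.8% G or C with 27 CpG dinucleotides and the Grin2c stretch 68.8% with 15. The stretches of Grin2d and Grin3b were 54.4% and 46.0% G or C with 9 and 2 CpGs, against a median of 52.4% and 6 CpGs over 32851 promoters of the same length.

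Motifs were searched on both strands of these stretches. AGGTCA, the core hexamer bound by nuclear receptors such as COUP-TFII, was found once, in Grin2c, and 14.0% of all promoters held it. The direct repeat of that hexamer with 1 base between was in 0.0335% of promoters and in none of the 4. GGGCGG, the Sp1 box, was found 3 times in Grin2c, the last 2 copies sharing 1 base, and 32.7% of all promoters held it. TGACGTCA (the cyclic AMP response element, 1.55% of promoters), GCGGGGGCG (the Egr box, 2.57%) and a core of the REST element (0.0457%) were in none of the 4. These are letter matches in short windows and say nothing about binding.

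The lists differed in length, from 53864 peaks in sgNr2f2 4 to 143405 in sgRosa 4, and read depth is unknown. Each list was therefore also taken at the length of the shortest, by −log10 p. Many peaks have exactly the same −log10 p, and up to 18530 of them, in sgNr2f2 2, were tied where the list ended. Tied peaks were each counted as an equal fraction of a place, which is why some numbers of peaks are not whole. Peaks were weak, as only 9.95% of all peaks had a q under 0.05. Of the marker genes, 0 to 3 of 9 neuron genes had a summit at most 1 kb from either gene end in a library. Of 5 genes each, 0 to 2 astrocyte, 0 to 1 oligodendrocyte, 0 to 2 microglia and 0 to 2 vascular genes had one. Gad2 of the neuron list had none in any library, so peaks at gene ends were too sparse to check the cell type. Nr2f2 itself had 0, 0, 1 and 2 peaks in sgRosa 1 to 4 and 2, 1, 0 and 1 in sgNr2f2 1 to 4 in the full lists. Peak numbers are no check of the knockdown.

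Grin1, the subunit common to all NMDA receptors (gene ID 14810, chromosome 2, 25291177 to 25319187), had 10 peaks in the full lists. In lists of equal length it had 0, 0, 1 and 2 peaks in sgRosa 1 to 4 and 0, 0, 2 and 2 in sgNr2f2 1 to 4. Both groups thus ran from none to 2. Its strongest peak, at 25301692 to 25301965 in sgRosa 4, had a −log10 p of 4.52 and a −log10 q of 1.02. None of its peaks had a q under 0.05. Tmem210 and Lrrc26 also reach into its window, so peaks at its edges can belong to either. Chromosome 2 took 6.003 to 7.395% of the peaks of the sgRosa lists and 7.72 to 9.64% of the sgNr2f2 lists, which do not overlap. Of the 20 chromosomes, 1 was higher (chromosome 2) and 1 lower (chromosome 3) in sgNr2f2 without overlap.

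Grin2b encodes GluN2B, the subunit that dominates early in life and slows channel closing (gene ID 14812, chromosome 6, 135713221 to 136173615). It is 460.4 kb long and 98.8% of protein-coding genes are shorter. In the full lists it had 28, 14, 22 and 35 peaks in sgRosa 1 to 4 and 18, 15, 14 and 8 in sgNr2f2 1 to 4. The groups met at 14 to 18 peaks there, while over 1747 genes 0.286% had sgNr2f2 below sgRosa in every library. In lists of equal length it had 24.6, 10, 21 and 15 in sgRosa and 9, 9.29, 11.2 and 8 in sgNr2f2. The sgNr2f2 libraries lay close together, the sgRosa libraries were spread out, and sgRosa 2 fell inside the sgNr2f2 range.

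Means in lists of equal length were 17.6 ± 6.44 (SD, n = 4) for sgRosa and 9.36 ± 1.33 (SD, n = 4) for sgNr2f2, 8.28 fewer against a pooled SD of 4.65. The ratio of sgNr2f2 to sgRosa was -0.91 on the log2 scale. A lower ratio was found for 4.71% of the 998 genes with a mean of at least 5 peaks, whose median was 0.09. The 2 groups overlapped at Grin2b, whereas they did not overlap, with sgNr2f2 lower, at 15 of the 998 genes (1.5%). Because Grin2b was picked on this contrast, nothing is read from its place among them.

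With all 8 libraries and lists of 53864 peaks, whether the groups separated at Grin2b depended on how tied peaks were handled. When ties at the end of a list were taken in the order of the deposited files, Grin2b had 23, 10, 21 and 15 peaks in sgRosa and 9, 9, 7 and 8 in sgNr2f2. The groups then did not overlap, as they did not, with sgNr2f2 lower, at 1.37% of 1019 genes. The library that decides this is sgNr2f2 3, with 7 peaks in file order and 11.2 with ties shared. Among peaks with a q under 0.05, Grin2b had 5, 2, 4 and 1 in sgRosa and 3, 1, 3 and 0 in sgNr2f2, which overlap. In the strongest 26932 peaks it had 14.0, 9, 10.6 and 10.6 in sgRosa and 5.43, 7.01, 5.37 and 3.01 in sgNr2f2, which do not overlap. In those lists 3.46% of 347 genes had sgNr2f2 lower without overlap.

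**Figure D1:**
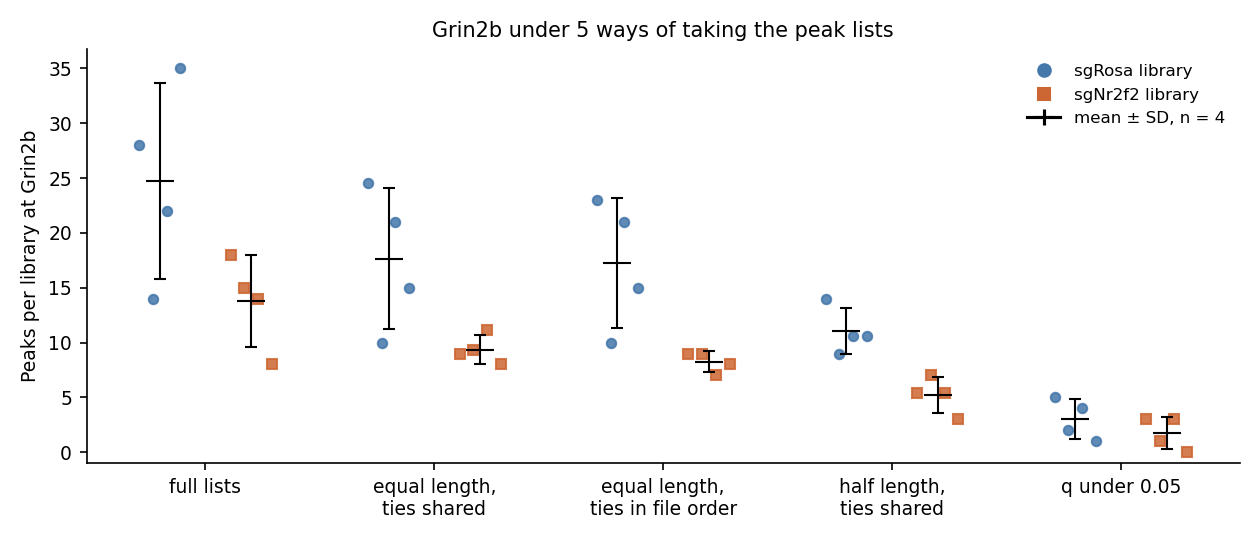
Peaks at Grin2b, its 5 kb margins included (y axis), under 5 ways of taking the lists (x axis); each point is 1 library and bars are mean ± SD (n = 4). The sgNr2f2 mean is the lower one in each, and the groups do not overlap with ties in file order or in the 26932 strongest peaks.

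Peaks of Grin2b were spread along the whole gene. From the low-coordinate end, 5 stretches of 92.1 kb held 28, 28, 30, 28 and 35 of the 149 peaks inside the gene. The sgRosa lists gave 20, 23, 20, 16 and 17 of these and the sgNr2f2 lists 8, 5, 10, 12 and 18. The last stretch thus held about as many in both groups, and the other 4 held more in sgRosa. In lists of equal length the groups overlapped in each of the 5. The longest stretch without a peak in a full list was 140.6 kb, in sgNr2f2 2, and the shortest such maximum was 51.4 kb, in sgRosa 4.

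**Figure D2:**
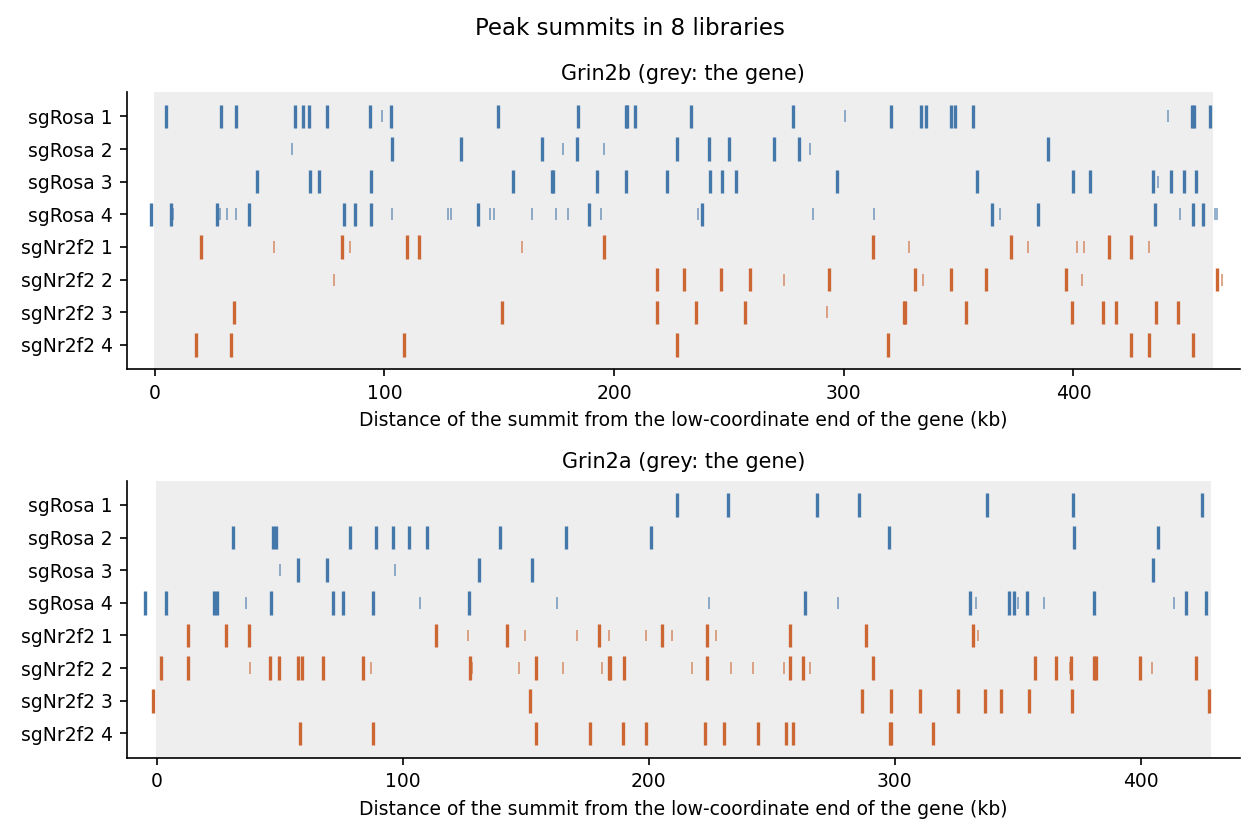
Peak summits along Grin2b and Grin2a in each library (rows), with distance in kb from the low-coordinate end of the gene on the x axis; tall ticks are peaks in the lists of equal length, wholly or in part, and short ticks are weaker peaks of the full lists. Summits are scattered along both genes, with few positions shared between rows.

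The surroundings of Grin2b varied in the same libraries. The 1 Mb on each side held 4.63, 2.55, 2.85 and 2.65 peaks per 100 kb in sgRosa 1 to 4 and 2.10, 1.49, 3.71 and 1.5 in sgNr2f2 1 to 4. Means were 3.17 ± 0.981 and 2.2 ± 1.05 (SD, n = 4 each), and the groups overlapped. The density in the gene divided by that in its flanks was 1.13, 0.834, 1.57 and 1.20 in sgRosa and 0.913, 1.32, 0.640 and 1.13 in sgNr2f2. On this ratio the groups overlapped widely, and their means of 1.18 and 1.00 differed by less than the pooled SD of 0.297.

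Chromosome 6 as a whole also took a varying share of each list. It held 8.38, 5.88, 6.08 and 6.64% of the peaks in sgRosa and 6.67, 6.14, 5.58 and 4.30% in sgNr2f2. Peak density at Grin2b and in the rest of chromosome 6 had a Pearson r of 0.70 over the 8 libraries and a Spearman rho of 0.43. When the libraries farthest from the median density of chromosome 6, sgRosa 1 and sgNr2f2 4, were left out, r was 0.01, so the relation rests on those 2. With the density of the flanks, r was 0.75 and rho 0.86, and without sgRosa 1 and sgNr2f2 3 r was 0.78. These are 2 of 6 relations computed for Grin2b, Grin2a and Grin3a. They are given with no test, since Grin2b was picked on the peak numbers that enter them. The densities of a library come from 1 list.

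**Figure D3:**
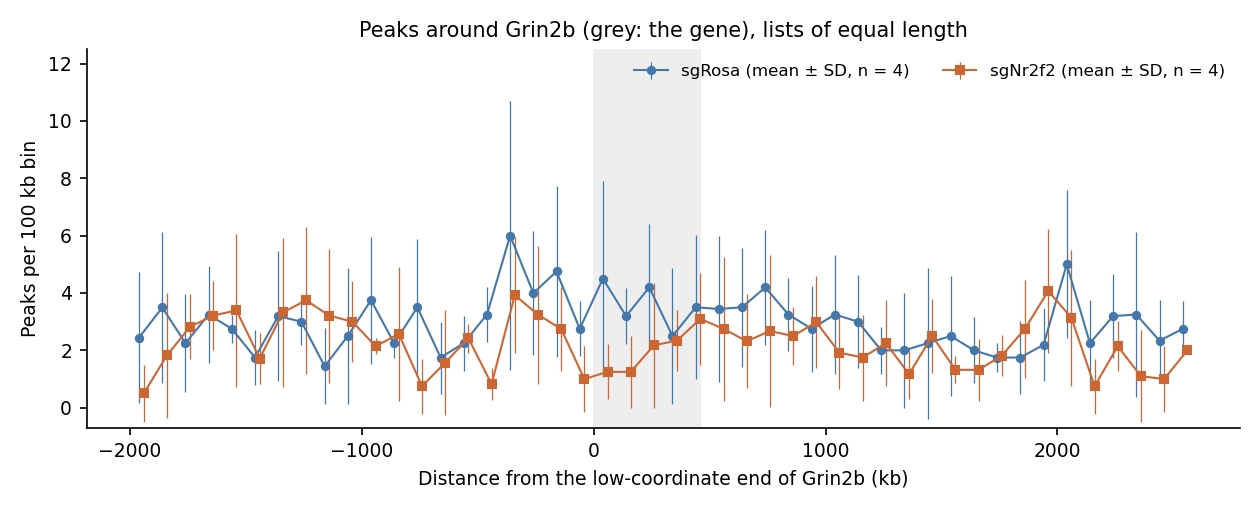
Peaks per 100 kb bin (y axis) over 2 Mb on each side of Grin2b (grey), by distance in kb from its low-coordinate end; points are group means and bars SD (n = 4). The sgRosa mean is above the sgNr2f2 mean in the bins of the gene and in many bins beside it, within bars that mostly overlap.

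Grin2a encodes GluN2A, the subunit of faster-closing receptors that gains weight as synapses mature (gene ID 14811, chromosome 16, 9567901 to 9996083). Its 136 peaks in the full lists were 8, 14, 7 and 26 in sgRosa 1 to 4 and 19, 37, 11 and 14 in sgNr2f2 1 to 4. In lists of equal length it had 6.34, 14, 5 and 17 in sgRosa and 11, 21.9, 10.7 and 14 in sgNr2f2. Means were 10.6 ± 5.83 and 14.4 ± 5.20 (SD, n = 4 each). The sgNr2f2 mean was 3.8 higher, less than the pooled SD of 5.52, and the groups overlapped. In the strongest 26932 peaks the means were 7.53 and 7.45.

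The strongest peak of the whole family lay in Grin2a. It spanned 9751761 to 9751921, 183.9 kb from the low-coordinate end, in sgNr2f2 2, with a −log10 p of 17.0, a −log10 q of 12.2 and a fold enrichment of 6.40. It ranked above 99.8% of the peaks of that library. The same place had a peak in 1 other library, sgNr2f2 1, at a −log10 p of 3.02. Among peaks with a q under 0.05, Grin2a had 22, of which 9 were in sgRosa 4.

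Grin2a peaks were spread evenly along the gene as well, with 27, 27, 28, 25 and 27 of 134 in 5 stretches of 85.6 kb. The middle one held 5 of these in the sgRosa lists and 23 in the sgNr2f2 lists. In lists of equal length it held 1.78, 1, 0 and 0 in sgRosa and 3, 4, 0 and 7 in sgNr2f2, which overlap. This stretch was picked out after the values were seen.

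Grin2c and Grin2d encode GluN2C and GluN2D, known from cerebellar granule cells and from interneurons. Grin2c (gene ID 14813, chromosome 11, 115249169 to 115267297) had 7 peaks, and in lists of equal length 0, 0, 2 and 0 in sgRosa and 1, 0, 1 and 1 in sgNr2f2. Its strongest, at 115253365 to 115253592 in sgRosa 3, had a −log10 p of 6.09. Grin2d (gene ID 14814, chromosome 7, 45831883 to 45871194) had 17 peaks, and in lists of equal length 1.78, 3, 1 and 1 in sgRosa and 0, 2, 1 and 2 in sgNr2f2. The groups overlapped at both genes. Of the Grin2d peaks, 7 lay outside the gene, where Grwd1 and Kdelr1 also lie, and Tmem104 and Fdxr share the window of Grin2c.

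Grin2d held the only place of the family with a peak in 3 libraries. It spanned 45857195 to 45857483 and was found in sgRosa 1, sgRosa 2 and sgNr2f2 4. Its −log10 p ran from 2.86 to 5.74.

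Grin3a encodes GluN3A, a subunit of juvenile receptors (gene ID 242443, chromosome 4, 49661611 to 49846023). It had 37 peaks, and in lists of equal length 1, 1.99, 5 and 2 in sgRosa and 5, 1, 2 and 4 in sgNr2f2. The ranges of the groups were the same, from 1 to 5. Its strongest peak, at 49723919 to 49724096 in sgNr2f2 3, had a −log10 p of 6.05. Rnf20 and Ppp3r2 also reach into its window.

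Grin3b encodes GluN3B, best known from motor neurons (gene ID 170483, chromosome 10, 79970397 to 79977190). It is the shortest of the 7, at 6.79 kb, and had 7 peaks. In lists of equal length it had 1, 1, 2 and 0 in sgRosa and 0, 0, 0 and 3 in sgNr2f2. All of its sgNr2f2 peaks thus came from sgNr2f2 4. Only 2 of the 7 lay inside the gene, and Wdr18 and Tmem259 share its window, so these peaks cannot be assigned to Grin3b alone.

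**Figure D4:**
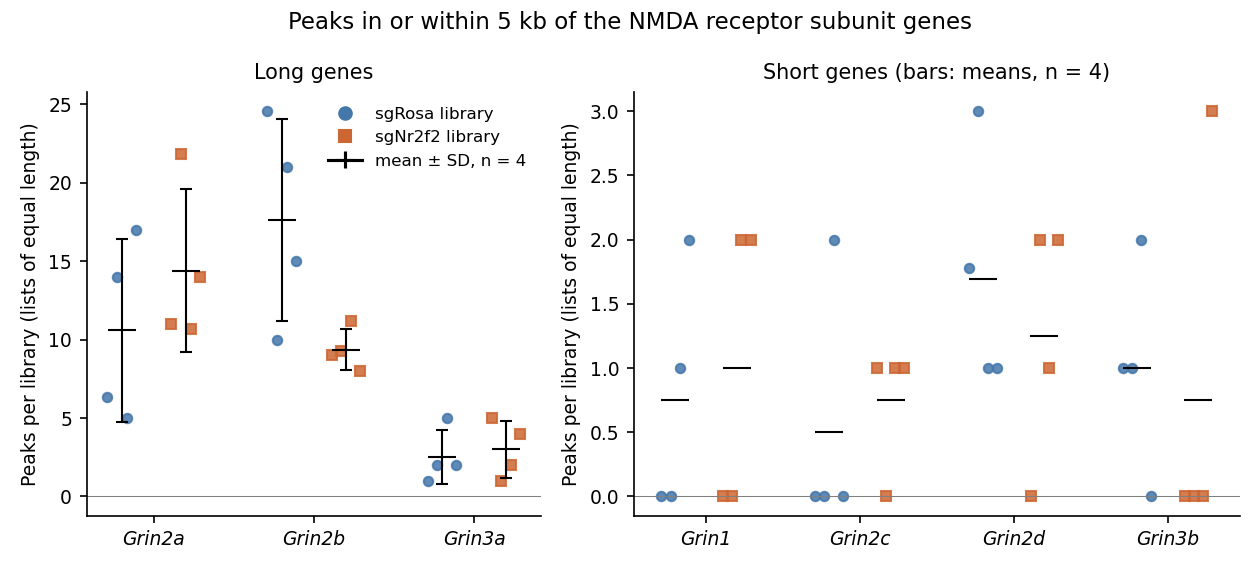
Peaks per library in lists of equal length (y axis) at each gene (x axis), long genes left and short genes right; points are libraries, and bars are mean ± SD (left) or mean (right), n = 4 per group. The groups overlap at all 7 genes, Grin2b included, where sgRosa 2 at 10 lies inside the sgNr2f2 range of 8 to 11.2.

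Added over the 7 genes, the lists of equal length held 34.7, 29.99, 37 and 37 peaks in sgRosa and 26, 34.1, 27.9 and 34 in sgNr2f2. Means were 34.7 and 30.5, 4.16 fewer in sgNr2f2 with a pooled SD of 3.78, and the groups overlapped. Without Grin2b the means were 17.0 in sgRosa and 21.1 in sgNr2f2, in the other direction and within a pooled SD of 5.11.

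Grin2a, Grin2b and Grin3a make up 89.3% of the length searched and held 88.9% of the peaks. Per length, none of the 3 long genes passed the test for a density different from the DNA around it. Grin2b had 2.87 peaks per 100 kb over the 8 libraries against 2.68 in its flanks, a difference of 0.19 ± 0.87 (SD, n = 8), higher in 5 libraries. An exact two-sided sign-flip permutation test over the 8 libraries gave p = 0.555, adjusted p = 0.894 over 3143 genes. Grin2a had 2.85 against 2.39, higher in 4 of 8 libraries, with an exact permutation p = 0.383, adjusted p = 0.836. Grin3a had 1.41 against 1.84, higher in 3 of 8 libraries, with an exact permutation p = 0.188, adjusted p = 0.666.

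The density of Grin3a was low, above that of 5.76% of the genes tested, and those of Grin2a and Grin2b were above 76.0% and 76.7%. The median over the 3143 genes was 2.38 peaks per 100 kb in the gene and 1.02 for the ratio to the flank. Of these genes, 0% passed an adjusted p under 0.05 in either direction, and 330 had an unadjusted p under 0.05, 133 higher and 197 lower. With 8 libraries the smallest p of this test is 0.0078. For any gene to pass on that p alone, 492 genes would have had to reach it, whereas 82 did. The 4 short genes had fewer than 2 peaks predicted from their flanks and were not tested.

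**Figure D5:**
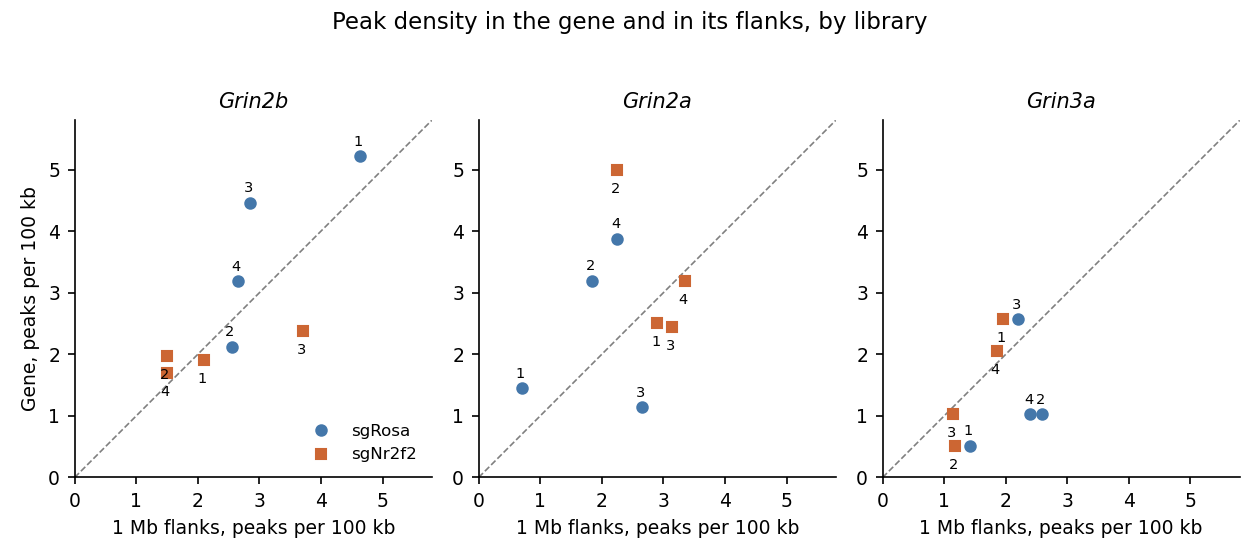
Peaks per 100 kb in the gene with 5 kb on each side (y axis) against the 1 Mb flanks on both sides (x axis); each point is 1 library, numbered by replicate, and the dashed line marks equal density. Libraries lie on both sides of the line for Grin2b (5 of 8 above), Grin2a (4 of 8) and Grin3a (3 of 8).

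Few places in these genes had a peak in more than 1 library. The 368 peaks formed 343 separate places, of which 24 had a peak in 2 or more libraries, with at least 1 bp of overlap. Of the 368 peaks, 13.3% overlapped a peak of another library, against 14.3% of 4239 peaks in the 1 Mb flanks of the 7 genes and 13.9% of all peaks. Grin2b had 10 such places and Grin2a 9. Of the 10 in Grin2b, 4 joined sgRosa libraries only, 3 joined sgNr2f2 libraries only and 3 joined 1 of each. The 3 shared by sgNr2f2 libraries lay at 135931722 to 135931982, 136138257 to 136138458 and 136146104 to 136146297 on chromosome 6. The 4 shared by sgRosa libraries lay at 135748512 to 135748845, 135807265 to 135807528, 135816413 to 135816652 and 135918327 to 135918522.

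In Grin2a, 7 of the 9 places were shared by sgNr2f2 libraries only, 2 joined 1 library of each group and none joined sgRosa libraries only. The full lists held 55 Grin2a peaks in sgRosa and 81 in sgNr2f2. No split of shared places by group was computed over all genes, so nothing is read from it for Grin2a or Grin2b. The Grin2a place with the strongest weaker peak lay at 9791324 to 9791569, with a −log10 p of 5.68 and 5.28 in sgNr2f2 1 and 2. Most of the 7 places joined these 2 libraries, whose lists are the longest of that group, with 103939 and 97620 peaks. Grin1 had 1 shared place (25298253 to 25298610), Grin3a 2 (49771021 to 49771306 and 49826705 to 49827071), Grin3b 1 (79966170 to 79966398, outside the gene) and Grin2c none.

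In strength, peaks at the NMDA receptor genes were close to the rest. Their median fold enrichment was 2.68 against 2.65 for all peaks, and their median width 162.5 bp against 167 bp. A q under 0.05 was reached by 48 of 368, 13.04%, against 9.95% of all peaks. These were 29 in sgRosa and 19 in sgNr2f2 lists, 19 of them at Grin2b, 22 at Grin2a, 3 at Grin3a, 2 at Grin2d and 1 each at Grin2c and Grin3b. Of all peaks, 18.6, 4.81, 9.49 and 7.41% had such a q in sgRosa 1 to 4. In sgNr2f2 1 to 4 it was 8.28, 5.99, 18.6 and 13.2%, so the pooled shares mix unlike lists. At the limit of the lists of equal length, the weakest Grin2b peak kept whole in sgRosa 1 had a −log10 p of 3.25, and the strongest member peak left out of that list had 2.64. At the limit of the window, the farthest Grin2b summit counted lay 4236 bp outside the gene and the nearest one not counted 5742 bp.

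Summits near either end of a gene were as rare. There were 6 within 1 kb of an end, 2 at Grin2c and 1 each at Grin2a, Grin2d, Grin3a and Grin3b, each in a single library. The one at Grin2a, at 9995653 to 9995913 in sgNr2f2 3, lay 0.302 kb inside the high-coordinate end, with a −log10 p of 5.43. Grin1 and Grin2b had none. Over all protein-coding genes, 10.2 to 21.1% had a summit within 1 kb of an end in a library.

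The other genes of the pathway were taken as 6 lists of 62 genes, all found, of which 17 had a mean of at least 5 peaks. In none of the 17 were the groups apart in either direction, against 1.5% lower and 2.51% higher in sgNr2f2 over the 998 genes. The sgNr2f2 mean was the lower one in 10 and the higher one in 7, that is lower in 58.8% against 44.3% of all genes. By an exact permutation test over the 70 assignments of libraries, 0 of the 998 genes passed after Benjamini-Hochberg adjustment. Without adjustment 40 of them had p under 0.05. The smallest adjusted p was 0.684. The smallest p of this test is 0.0286, and 571 genes would have had to reach it for any to pass.

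AMPA receptors carry the fast glutamate current that depolarises the membrane for NMDA receptors. Of their 4 subunit genes 2 were counted, with a median log2 ratio of sgNr2f2 to sgRosa of -0.16, against 0.09 over the 998 genes. Gria1, with the most peaks, had 7, 9.97, 6 and 10 in sgRosa and 8, 5.57, 4 and 15 in sgNr2f2. Its means of 8.24 and 8.14 were nearly equal, and the sgNr2f2 range enclosed that of sgRosa.

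Of the 7 kainate and delta receptor genes 6 were counted, 3 with a lower and 3 with a higher mean in sgNr2f2, and a median log2 ratio of 0.13. Grid1, a delta receptor gene, had 11.6, 18.99, 18 and 17 in sgRosa and 32, 18.01, 22.4 and 29 in sgNr2f2. The groups met at sgRosa 2 and sgNr2f2 2. With ties in file order they did not overlap, at 12, 19, 18 and 17 against 32, 23, 23 and 29, the only pathway gene counted for which this was so. Over all genes 2.55% were higher in sgNr2f2 without overlap in that order.

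Of the 15 postsynaptic scaffold genes 4 were counted, 2 lower and 2 higher, with a median log2 ratio of 0.10. Dlg2, which encodes the anchoring protein PSD-93, had the most peaks, 40.04 ± 9.03 (SD, n = 4) in sgRosa and 49.7 ± 11.7 (SD, n = 4) in sgNr2f2, overlapping. Of the 20 calcium effectors and kinases 5 were counted, 3 lower and 2 higher, with a median of -0.59. Prkcb, a protein kinase C gene, led them with 11.3 ± 5.19 and 12.6 ± 3.23 peaks (SD, n = 4 each), which overlap. The median of -0.59 is the ratio of Camk2d, a gene named after the values were seen. Camk2d had 23, 6.99, 8 and 5 peaks in sgRosa and 8, 7.43, 6.09 and 7 in sgNr2f2. Its groups overlapped, and its higher sgRosa mean rests on sgRosa 1, so the median does too. Camk2b, a subunit of the kinase that NMDA receptor calcium switches on, lay below the minimum of 5 peaks and was not counted. Its groups did not overlap, with 3, 3, 6 and 3 peaks in sgRosa and 2, 2.29, 2.70 and 2 in sgNr2f2, as was so in that direction at 0.52% of 2499 genes with a mean of 2 to 5 peaks. The 2.29 and 2.70 each include a tied peak counted in part, and counted whole it would bring them to the 3 of sgRosa.

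None of the 6 genes for co-agonist supply and of the 10 for trafficking had a mean of 5 peaks. The most peaks were at Slc6a9, the glycine transporter GlyT1, with means of 1.25 and 2.50, and at Apba1, an adaptor for receptor transport, with 5.25 and 4.71. Both genes' groups overlapped.

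The genes whose peak numbers over the 8 libraries followed Grin2b most closely were Gabra5, Trpc7, Clstn2, Myo10 and Tenm3, by Pearson r among 997 genes. Gabra5, a GABA-A receptor subunit gene on chromosome 7, had r = 0.93, and Trpc7, a cation channel gene on chromosome 13, had r = 0.91. Clstn2 (chromosome 9), Myo10 (chromosome 15) and Tenm3 (chromosome 8) had r = 0.89, 0.89 and 0.89. None of the 5 lies on chromosome 6. Close to Grin2a were Nkain3 (r = 0.96), Kcnq5 (0.90), Lsamp (0.86) and Kcnq1 (0.86), of which Lsamp is on chromosome 16 with it. These are descriptions over 8 points that share library and list length, and the best of 997 is high by selection. Grin2b and Grin2a themselves had r = -0.67 over the same libraries.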

How the data were processed

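Amygdala neurons of 8 mice were profiled by ATAC-seq, 4 libraries per group, with groups and replicate numbers from the sample titles. The authors deposited 1 narrowPeak list per library in mm10. Tools named in the submitters' processing notes are MACS2 2.2.9.1, Picard, HOMER 4.10, fastp 0.23.2, DiffBind 3.10.0, MultiQC 1.11 and FastQC 0.11.9. The sources used here do not give the aligner, the Tn5 shift or the peak calling options. The authors' score (an integer), fold enrichment (a ratio), −log10 p and −log10 q stand on each deposited line. They belong to that peak and served to order and describe peaks of 1 list. Every list reaches down to a p of about 0.01.

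Only chromosomes 1 to 19 and X were used, and an interval with several summits counted as 1 peak, at its strongest summit. Genes and positions came from RefSeq tables of GRCm38.p6, which give no exons, and strand only with the promoters, so peaks are not assigned to exons or introns. Lists were cut to the strongest 53864 peaks with ties shared. Flanks were the 1 Mb beyond the 5 kb window on each side. Gene and flank densities were compared within libraries by an exact sign-flip test, and groups by an exact permutation test over 70 assignments, with Benjamini-Hochberg adjustment. The test calculations were tested on simulated data. Software was Python 3.11.15 with scipy 1.17.1, pandas 2.3.3, numpy 2.4.6 and matplotlib 3.10.9.

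The labels give the number of mice per group but do not tie each library to 1 mouse, so p-values measure the spread between these libraries. The members, gene lists and markers were chosen with earlier results of these data known. Named were the 7 genes, the gene with the most peaks in each pathway list, pathway genes whose groups do not overlap, the 5 genes most like Grin2a and Grin2b, places shared by libraries and the strongest peak of each gene. A few items chosen by this rule are not reported here. Further named items are said to have been picked after their values were seen, and Grid1, Gad2 and Nr2f2 were too. Promoters were to be printed for genes with a peak near the start. None of the 4 genes with a start in the promoter set had one, and 2 were printed all the same.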

Additional observations from a re-analysis of the deposited data

Results flagged for a closer look

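In groups of 4 libraries, 1 library stood apart from the other 3 in 10 of 46 groups of values examined for these genes, where its gap to the nearest other took up most of the range of the group (Dixon's criterion). Chance sets apart about 1 in 20 groups of continuous values, which does not hold for small whole numbers, and in 6 of the 10 the other 3 libraries had equal values. The groups examined also share peaks. For Grin2a, the ratio of gene to flank density was 2.22 in sgNr2f2 2 and 0.775 to 0.954 in the other sgNr2f2 libraries. For Grin3a it was 1.17 in sgRosa 3 and 0.364 to 0.429 in the others. Grin3a also had 9 peaks in the full list of sgNr2f2 1 and 3 to 4 in the other sgNr2f2 libraries.

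The other cases rest on very few peaks. Grin2c had 2 peaks in lists of equal length in sgRosa 3 and 0 in the other sgRosa libraries, with a ratio to the flank of 2.73 there, and 0 in sgNr2f2 2 against 1 in each of the others. Grin3b had 3 peaks in sgNr2f2 4, in the full list and in that of equal length, and 0 in the other sgNr2f2 libraries, with a ratio to the flank of 4.41. Over the 7 genes, the full list of sgRosa 4 held 76 peaks and the other sgRosa lists 34 to 40. The sgRosa 4 list is also the longest of all, at 143405 peaks.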

How the results depend on the processing

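Grin2b had 8.28 fewer peaks in sgNr2f2 in the lists of equal length, and from 5.97 to 10.8 fewer when 1 library was left out. The groups did not overlap without sgRosa 2 (a difference of -10.8), without sgNr2f2 3 (-8.88), with ties in file order (-9.00, an alternative chosen after seeing the data) or in the strongest 26932 peaks (-5.84). Over all genes counted, sgNr2f2 was lower without overlap at 28 of 1028 without sgRosa 2 and at 26 of 1000 without sgNr2f2 3. With ties in file order it was so at 14 of 1019. At Grin2b the difference among peaks with a q under 0.05 was -1.25. The range without 1 library was 1.31 to 5.94 for Grin2a and -5.72 to -2.66 for all 7 genes. Genes whose groups did not overlap numbered 15 lower and 25 higher in sgNr2f2, of 998 counted. In the full lists they were 5 and 7 of 1747 genes, in the strongest 26932 peaks 12 and 5 of 347, and among peaks with a q under 0.05 they were 0 and 0 of 19, where fewer genes were counted. Without 1 library they were 24 to 35 lower and 36 to 52 higher, of 1000 to 1037 genes, as fewer libraries had to be apart. With the replicate number as a block they were 61 and 91 of 998, counted as all 4 pairs differing one way. Same-numbered libraries deviated together with correlations of 0.11, 0.04, 0.04 and -0.01, and 1 of the 4 numbers had its own number as best partner. The labels do not say whether the numbers pair the samples, and such values cannot settle it.

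For the density of the gene minus its flank, Grin2b ran from -0.19 (a flank of 500 kb) to 0.40, also below 0 without sgRosa 3 (-0.02), with adjusted p from 0.598 to 0.994. Grin2a ran from 0.14 (without sgNr2f2 2) to 0.74 and Grin3a from -0.58 to -0.23. No gene passed in any of these settings. Grin2a could not be tested among peaks with a q under 0.05, nor Grin3a there or in the strongest 26932 peaks, as fewer than 2 peaks were predicted. Read depth is unknown, and the short genes hold too few peaks for a difference between groups to be seen.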
